A study of Rattus norvegicus with 4 samples.

Results

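The regions described here are 3004 weak H3K4me3 regions of the rat sciatic nerve that were called in sham nerve and had no overlapping call in transected nerve. They were chosen by 3 measured values of the sham peak list: no transected peak overlapping by 1 bp, a called width above 1 calling window of 150 bp, and fewer than 79.2 normalized tags. They are 3004 of the 35856 peaks of the sham list, or 8.38%, and the transected list holds 33100 peaks. The tag count, the width and the absence of a partner are therefore properties of the choice and are given as a description.

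The study profiled histone H3 trimethylated at lysine 4 in male Sprague Dawley rats, with 2 samples from nerve distal to a transection and 2 from the contralateral nerve, whose limb had a skin incision only. Both nerves were taken 1 day after surgery, and all 4 samples carry the label P42 under a field named passage. Chromatin was digested with micrococcal nuclease before precipitation. Nothing in the labels ties either sample of a pair to an animal. Each list was called on their pooled tags, so no value below has a replicate check, and no p-value is given. Because the sham nerve comes from a limb opposite an injured one, it is an operated control and not a nerve of an uninjured animal.

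H3K4me3 is placed by the SET1 and MLL complexes, and its strongest signal lies on nucleosomes beside the start sites of active genes. Weak, narrow signal can also be seen away from strong promoters, at enhancers, minor start sites and the edges of larger domains. In peripheral nerve, loss of contact with axons makes Schwann cells leave their myelinating or ensheathing state and take up a repair state. Whole nerve also contains fibroblasts, endothelial cells, perineurial cells and immune cells, and macrophages enter the injured stump. In whole tissue, fewer cells carrying a mark and less of the mark per cell cannot be told apart.

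Of the sham peaks, 7120 had no transected partner, which is 19.9% of the list. In the transected list 3931 peaks had no sham partner, or 11.9%. Among the 7120 sham-only peaks, 4076 were exactly 1 window wide and 3044 were wider. The wider ones split into the 3004 described here and 40 with tag counts at or above 79.2. The 2 sets do not meet at the limit. The highest tag counts below it were 73.9, 60.2 and 50.0 normalized tags, and the lowest above it were 139.4, 154 and 154.9, while 2175 shared sham peaks wider than 1 window lay between 73.9 and 139.4. At the lower width limit the sham list jumps from 150 bp to 187 bp, the smallest width above 1 window.

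**Figure D1:**
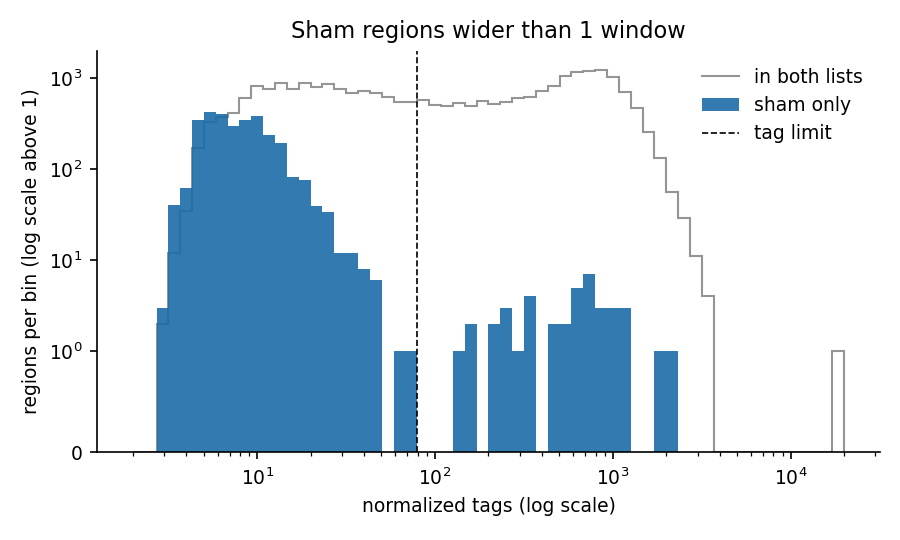
Number of sham peaks wider than 1 window (vertical axis, log scale above 1) by normalized tag count (horizontal axis, log scale), for peaks found in the sham list alone (filled) and peaks overlapping a transected peak (line). The dashed line is the limit of 79.2 tags, and sham-only regions are missing between 73.9 and 139.4 tags while shared peaks fill that range.

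As a group these regions were faint and short. The median held 7.52 normalized tags (5th to 95th percentile 4.43 to 18.6), which is 17 tags before scaling. An exact Poisson interval for 17 tags, covering counting error only, runs from 4.38 to 12.05 normalized tags. The middle of the set by width measured 237.5 bp, and 30.2% were under 200 bp. Only 113 of the 3004 reached 20 tags and 10 reached 40. Together they covered 892.5 kb, or 2.60% of the length called in sham nerve, and held 0.308% of the tags in sham peaks.

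Tag count and width rose together across the set, with a Spearman rho of 0.76 over the 3004 regions. This is a description, since a longer call collects more tags. Density, in normalized tags per kb of called length, was nearly flat with width, with a rho of -0.08. Its median was 28.8 tags per kb, with quartiles of 24.9 and 34.4. Regions of 187 to under 200 bp had a median density of 29.7 and those of 500 to under 1000 bp a median of 26.9, although their median tag counts were 5.75 and 16.8. The 15 regions of at least 1000 bp had a median of 34.5 tags and 29.1 tags per kb. A wider sham-only region was thus a longer stretch of about the same faint signal. With tag count, in contrast, density rose, at a rho of 0.50.

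The share of sham peaks with no partner fell steeply with tag count. Taking all 15264 sham peaks wider than 1 window and under the limit, the share was 19.7% (95% exact Clopper-Pearson interval 19.1 to 20.3), which is the count fixed by the rule. Below 5 tags, 450 of 671 such peaks had no partner, or 67.1%. From 5 to under 10 tags it was 1682 of 3828, or 43.9%, and from 10 to under 20 tags 759 of 4437, or 17.1%. It dropped to 2.88% (103 of 3580) from 20 to under 40 tags and to 0.364% (10 of 2748) above that. These intervals and all others here cover counting error alone, because each list is a single pool without replicate spread. Reads lacking molecular identifiers may also be copies of the same molecule, which the intervals do not cover.

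Transected nerve had fewer regions of this kind. The same 3 conditions applied to the transected list gave 1272 of 13337 peaks, or 9.54% (interval 9.04 to 10.0). The sham set was thus 2.36 times as large, while shared peaks of the same width and tag range numbered 12260 in sham and 12065 in transected nerve, a ratio of 1.02. In each of the 5 tag ranges the sham share was the higher: 43.9% against 25.1% from 5 to under 10 tags, and 17.1% against 7.09% from 10 to under 20 tags. Above 40 tags the intervals of the lists overlapped, 0.175 to 0.668% against 0.0636 to 0.456%. For peaks of 1 window the share was 66.0% in sham and 44.2% in transected nerve, or 4076 against 2624 peaks, a ratio of 1.55.

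The caller's settings were equal in both lists, but their tags were not. Sham nerve contributed 22595649 tags and transected nerve 21307148, a ratio of 1.06. The headers give fragment lengths of 144 bp for the former and 132 bp for the latter, with a threshold of 8 tags for both. When sham tags scaled to the transected depth had to reach this threshold, the sham set was 2.07 times as large as the transected one. Of the 3004 regions only 43 (1.43%) fell under it, against 1197 of the 4076 1-window sham-only peaks (29.4%). Transected peaks were not filtered, so this setting is one-sided. The part of the fragment length in the result was not tested. With a score of at least 9 in both lists the sham set was still the larger, 1.56 times (4036 against 2589 regions). Scaling the sham score alone to the transected depth removes every sham peak at the threshold score of 8, because the scores are whole numbers. It removes no transected peak and leaves more of them without a partner. The sham set was then the smaller at 0.569 times (2064 against 3627), but this one-sided setting cannot decide the direction.

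**Figure D2:**
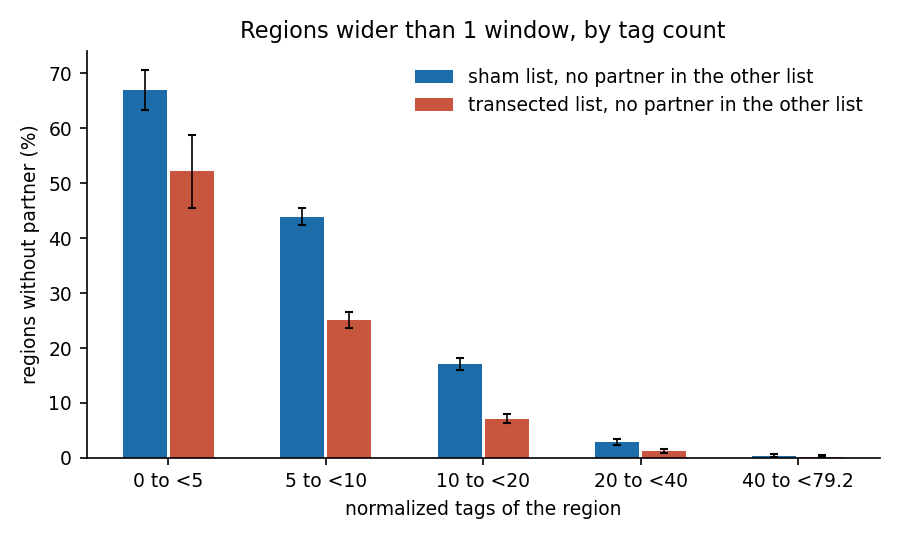
Share of peaks wider than 1 window without an overlapping peak in the other list (vertical axis, percent), by normalized tag count in the peak's own list (horizontal axis), for the sham and the transected list. Bars are the share and whiskers its 95% exact interval. The sham share falls from 67.1% below 5 tags to 0.364% from 40 tags up and is above the transected share in each range.

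Shared sham peaks of the same tag range were denser from 5 tags up. From 10 to under 20 tags, sham-only regions had a median of 31.9 tags per kb over a median width of 400 bp, and shared peaks 38.5 tags per kb over 368 bp. From 20 to under 40 tags the medians were 36.9 tags per kb over 707 bp and 49.4 tags per kb over 561 bp. For the 10 regions above 40 tags they were 47.3 tags per kb over 995 bp, against 71.6 tags per kb over 773 bp in 2738 shared peaks. From 10 tags up the sham-only signal was thus spread over a longer call. From 5 to under 10 tags, where 1682 of the 3004 regions lie, the sham-only call was the shorter at 221.5 against 228 bp, with 29.4 against 31.5 tags per kb. Below 5 tags the medians were 23.1 and 23.2 tags per kb and 195 and 194 bp. Shared peaks were then weighted to the tag mix of the sham-only regions. The median widths were 237.5 bp for sham-only and 236 bp for shared peaks, and the densities 28.8 and 31.5 tags per kb. This weighting did not equalize tags within the ranges, since their medians were 7.52 and 8.41. With ranges of 1 tag the density excess of shared peaks was 1.53 tags per kb, against 2.74 with the ranges used here.

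**Figure D3:**
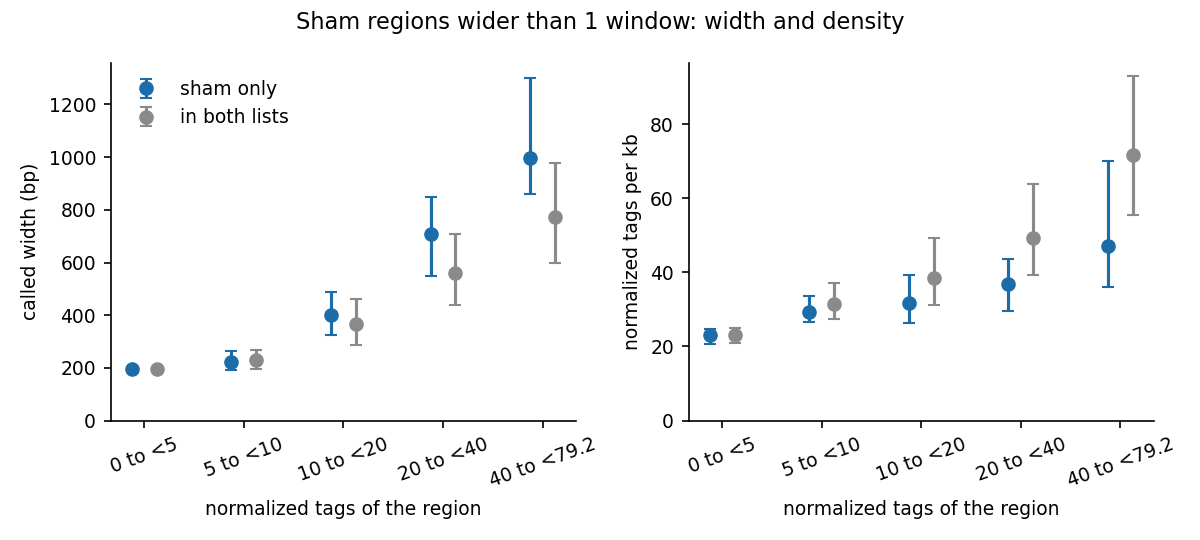
Called width in bp (left) and normalized tags per kb (right) of sham peaks wider than 1 window, by normalized tag count (horizontal axis). Points are medians and whiskers the quartiles, for regions found in sham alone and regions found in both lists. From 10 tags up the sham-only regions are wider and less dense, for example 36.9 against 49.4 tags per kb from 20 to under 40 tags.

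The caller's score, a whole number of at least 8 whose unit the files do not state, pointed the same way. It was at the threshold of 8 in 31.3% of the sham-only regions, and in 25.3% of shared peaks weighted to their mix of tag ranges. The median score was 9 in the former and 10 in the latter, whose median tags were also higher, 8.41 against 7.52. The clonal fold, by which the caller removes regions above 2 for too few distinct tag positions, was low throughout. It exceeded 1 in 1 of the 3004 regions and in 42 of 12260 shared peaks, and its medians were 0.41 and, in the same mix of tags, 0.43.

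Shared peaks of like tag count give an account of what a faint region looked like when both nerves had a call. Of the 2146 shared sham peaks from 5 to under 10 tags, the overlapping transected calls held a median of 7.51 tags, and 38.4% were 1 window wide. The sham call then measured a median of 228 bp and the transected call 195 bp. From 10 to under 20 tags the median went from 14.2 tags in sham to 11.7 in transected nerve, a median log2 ratio of -0.32, and 20.4% of the transected calls were 1 window wide. In that range 776 of 3678 peaks (21.1%) had at most 1 part in 2 of their sham tags in the transected list, and 237 (6.44%) had 2 times as many or more. From 5 to under 10 tags the order was the opposite, 5.31% against 14.9%, with a median log2 ratio of 0.08. Below 5 tags the shares were 0% and 31.7%. These tags are summed over the whole overlapping calls, which can reach beyond the sham call, so the ratios do not compare the same stretch. The overlapping transected calls held at least 79.2 tags for 17 of 221 sham peaks below 5 tags. From 5 to under 10 tags it was 85 of 2146, and from 10 to under 20 tags 95 of 3678. Weighted to the tag mix of the sham-only regions, the median log2 ratio of transected over sham tags was 0.01. Seen from transected nerve, the 3760 shared peaks from 10 to under 20 tags had a median of 17.3 tags in sham nerve, a log2 ratio of sham over transected of 0.26. A list gives no tags outside its calls and both sides were selected to be called, so these ratios say nothing on the tags transected nerve held in the sham-only regions.

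The sham-only regions were mostly not beside a transected peak. The median gap, edge to edge, was 7519.5 bp to the nearest transected peak, with quartiles of 900.5 and 28125.5 bp. To the nearest other sham peak their median gap was 6086 bp, against 5355 bp for shared sham peaks weighted to their tag mix. Of the 3004, 780 (26.0%) lay within 1 kb of a transected peak and 1372 (45.7%) had none within 10 kb. For 1142 (38.0%) neither list had another peak within 10 kb. Nearest transected peaks fell evenly on both sides, 1505 at lower and 1496 at higher coordinates, and 3 regions touched a transected peak with a gap of 0 bp. Tags, width and density hardly varied with this gap: Spearman rho over the 3004 regions was 0.03, -0.01 and 0.08.

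Very short gaps differed in the kind of nearest peak. Within the sham list the caller left at least 220 bp between peaks, which limits how often a transected peak closer than that can also overlap a sham peak. Of 222 regions with a gap under 220 bp, 144 (64.9%) had a transected-only peak as their nearest, with a median of 6.10 tags for all nearest peaks. From 220 to under 1000 bp it was 45 of 558 (8.06%), and the nearest transected peak held a median of 30.75 tags. In all, 206 of the 3004 (6.86%) had a transected-only peak of any tag count within 1 kb. The 5 closest all had a 1-window transected-only peak of 3.29 to 4.69 tags within 1 bp. One of them, at 42076299 to 42077001 on chromosome 9, held 23.9 tags over 702 bp and touched a transected call of 3.75 tags.

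Weak regions found only in transected nerve lay closer to peaks of the other list, and also to peaks of their own. Their median gap to the nearest sham peak was 1414.5 bp (exact interval of the median 1221 to 1668), against 7519.5 bp (6740 to 8463) for the sham-only set. To the nearest other peak of the same list the medians were 1257 and 6086 bp. The sham list also holds more peaks to measure to, 35856 against 33100. Measured only to peaks of the other list that had a partner, the medians were 2421.5 and 9737 bp. These peaks mark regions called in both lists, but with edges as called in the other list. One-window regions showed the same order, 2242.5 bp in the transected and 6720 bp in the sham list. This contrast was smaller with a score of at least 9 in both lists, 8397 against 12183.5 bp. When the sham score alone was scaled to the transected depth the medians were 7661 and 7627.5 bp. That setting removes sham peaks only. It leaves more transected regions without a partner, 3627 against 1272, and fewer sham peaks to measure to. It therefore cannot decide whether the contrast holds. At a clonal fold of at most 1 the medians were 2425.5 against 9056 bp, and at 300 bp or wider 1298 against 6720 bp.

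**Figure D4:**
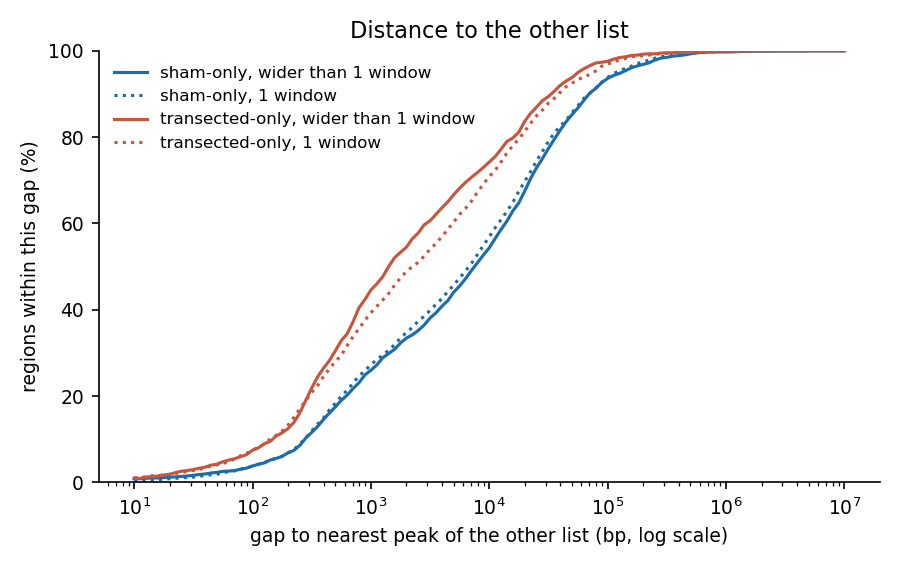
Cumulative share of regions (vertical axis, percent) whose gap to the nearest peak of the other list is at most the value on the horizontal axis (bp, log scale). Lines stand for regions found in 1 list alone, wider than 1 window (solid, under 79.2 tags) or 1 window wide (dotted, all tag counts), with medians of 7519.5 and 6720 bp in sham and 1414.5 and 2242.5 bp in transected nerve.

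A minority of the set flanked a strong region, taken as a sham peak of at least 79.2 tags. Within 5 kb of such a peak lay 709 of the 3004 regions, or 23.6% (exact interval 22.1 to 25.2). Shared sham peaks weighted to the same mix of tag ranges reached 25.6%, slightly more, so the sham-only regions were not richer in flanking positions than shared peaks of like tag count. In transected nerve the share was 39.6% (36.9 to 42.4) of 1272 transected-only regions, and 25.3% of shared transected peaks in their tag mix. With a score of at least 9 in both lists the shares of the 1-list sets were 18.5% in sham and 24.2% in transected nerve. With the sham score alone scaled to the transected depth, which removes sham peaks only, they were 19.0% and 30.2%. At a clonal fold of at most 1 they were 19.8% and 30.6%, and at 300 bp or wider 26.0% and 44.7%.

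The 709 flanking regions had 659 strong peaks as their nearest, and 43 of these were the nearest of 2 or more. Strong peaks with any such region within 5 kb, nearest or not, numbered 731. The median gap of the 709 regions to their nearest strong peak was 1015 bp. Of them, 353 lay within 1 kb, and 384 were on the higher side and 325 on the lower. They resembled the remaining 2295 in tags, with a median of 7.52 in both, and in width, with medians of 240 and 237 bp. Their density was slightly lower, 27.7 against 29.1 tags per kb. Their gap to a transected peak was short, a median of 726 bp against 14771 bp. This follows largely from the grouping, since 14372 of the 14412 strong sham peaks overlapped a transected peak.

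Few of the regions were close to one another. Another region of the set lay within 10 kb for 363 of the 3004, or 12.1% (exact interval 10.9 to 13.3). They formed 153 pairs, 15 groups of 3 and 3 groups of 4, and the other 2641 stood alone. Among the 1272 transected-only regions the share was 14.2% (12.3 to 16.2), although that set is less than 1 part in 2 as large, and it held 1 group of 5. Counting any sham-only peak as a neighbour, 1-window peaks included, raised the sham share to 23.7%.

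Of the 3 groups of 4, the 2 that the rule for named regions takes lay in different settings. Positions are copied from the lists. Their build is not stated in the labels or headers used here, so no gene is named. On chromosome 6, 147235145 to 147238278, 4 regions of 16.8, 8.85, 15.0 and 5.31 tags lay within 3.13 kb with no transected peak among them. The nearest transected peak was a transected-only call of 7.98 tags, 1038 bp from the last of them, and the nearest strong sham peak was 244534 bp or more away. On chromosome 17, 1063378 to 1084048, 4 regions of 11.1, 30.5, 17.7 and 22.6 tags lay around a transected peak of 2253.2 tags at 1076433 to 1081152. Their widths were 585, 1239, 826 and 844 bp, and 3 of them were within 2175 bp of a strong sham peak. One group thus stood in a stretch without strong signal. In the other, 3 of the 4 regions lay near a strong domain, and the first was 11475 bp from a strong sham peak.

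The regions with most tags were diverse in setting. The first, at 74439489 to 74440357 on chromosome 16, held 73.9 tags (exact Poisson interval 63.1 to 86.0) over 868 bp, and the nearest transected peak was 25847 bp away. The second, at 43245098 to 43246325 on chromosome 12, held 60.2 tags (50.5 to 71.2) over 1227 bp. It lay 321 bp from a strong sham peak and 380 bp from a transected peak of 109.8 tags. The region at 163622398 to 163623255 on chromosome 2 held 50.0 tags, with a faint transected-only peak of 5.63 tags as its nearest, 10071 bp away. On chromosome 5, 163328687 to 163329344 held 48.7 tags over 657 bp, 13797 bp from a strong sham peak. On chromosome 16, 9264924 to 9266392 held 48.2 tags over 1468 bp, 36696 bp from the nearest transected peak. Of these 5, the one on chromosome 12 alone was within 5 kb of a strong sham peak.

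The 5 widest regions ranged from 24.6 to 49.1 tags per kb, and 4 of them were above the median density of the set. The widest, at 62675637 to 62677206 on chromosome 5, measured 1569 bp with 45.6 tags, or 29.1 tags per kb, and lay 603 bp from a strong sham peak. The third by width, at 64756459 to 64757786 on chromosome 8, also held 45.6 tags, over 1327 bp, or 34.4 tags per kb, but was 419690 bp from a strong sham peak and 160150 bp from any transected peak. The other 3 of the 5 widest were those on chromosomes 16, 17 and 12 given above, at 32.8, 24.6 and 49.1 tags per kb.

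Of the 5 densest regions, 3 were shorter than the median of 237.5 bp. At 8954929 to 8955118 on chromosome 15, 25.2 tags lay in 189 bp, or 133 tags per kb, and this was the one region with a clonal fold above 1, at 1.13. At 77703147 to 77703495 on chromosome 8, 42.5 tags lay in 348 bp, or 122 tags per kb, with a score of 30, the highest of the set. At 254724696 to 254724923 on chromosome 1 it was 23.9 tags in 227 bp, 521 bp from a transected peak of 7.51 tags. At 56391845 to 56392032 on chromosome 6 it was 16.4 tags in 187 bp, 163583 bp from any transected peak. The fifth was the region of 73.9 tags on chromosome 16, at 85.1 tags per kb over 868 bp, wider than the 95th percentile of the set, 579.7 bp.

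The 5 most remote regions held 3.98 to 6.20 tags, all below the median of the set, although over the whole set tags hardly varied with the gap (Spearman rho 0.03). The farthest, at 13732180 to 13732389 on chromosome 13, was 10926290 bp from the nearest transected peak and 10926253 bp from any other sham peak, and held 5.31 tags (12 before scaling, exact Poisson interval 2.74 to 9.28). The region at 89140399 to 89140594 on chromosome 2 also held 5.31 tags, and 6.20 tags lay at 20357753 to 20357942 on chromosome 18. Chromosome 13 held a further one of 3.98 tags at 45416711 to 45416899, and chromosome 6 one of 5.75 tags at 79550337 to 79550531. The gaps of these 4 to a transected peak ran from 1362319 to 4585571 bp. The one on chromosome 6 had another sham peak at 18262 bp, and for the others the nearest sham peak was at least 1431488 bp away. All 5 were 188 to 209 bp wide.

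The set was spread over the genome without a chromosome that dominated it. Per chromosome, sham-only regions were 18.0% (chromosome 14) to 22.1% (chromosome 2) of sham peaks wider than 1 window and under the limit. The exact interval of chromosome 2, 19.8 to 24.6%, was the one of 21 that left out the overall 19.7%. All 21 chromosomes held more sham-only than transected-only regions of this kind, from 1.75 times on chromosome 16 (82 against 47) to 3.55 times on chromosome 2 (263 against 74). On X they numbered 53 and 29.

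**Figure D5:**
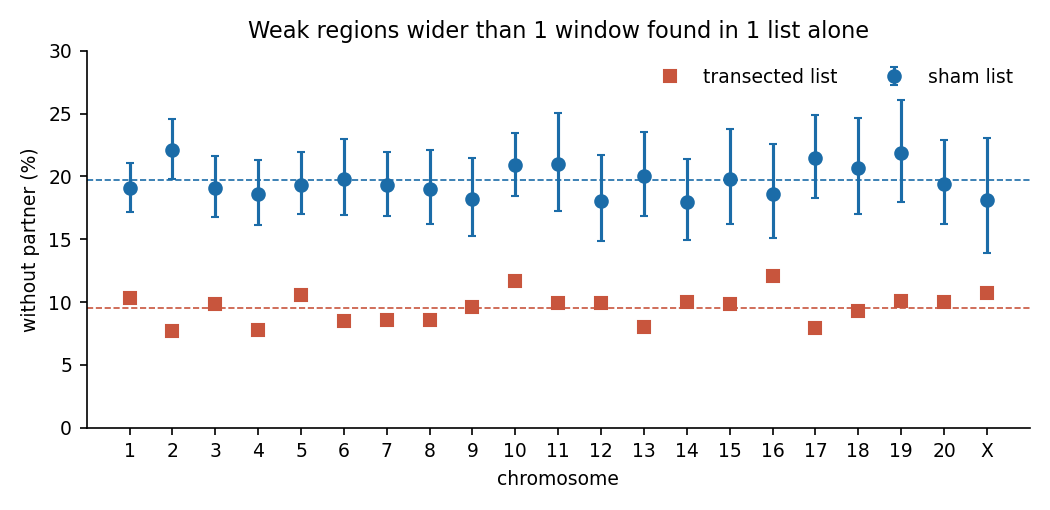
Share of peaks wider than 1 window and under 79.2 tags that had no partner in the other list (vertical axis, percent), by chromosome. Circles are the sham list with 95% exact intervals, squares the transected list, and dashed lines the overall shares of 19.7% and 9.54%. The circles lie between 18.0% and 22.1% and above the squares on each chromosome.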

How the data were processed

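Tags were aligned and peaks called by the authors. CASAVA 1.8.2, Bowtie and HOMER are named in the submitters' processing notes, and no source used here states the build. Per the file headers, findPeaks was run on the combined tag directory of each group with windows of 150 bp, stitched into regions, a minimum distance of 370 bp, a false discovery rate of 0.001 and no input named. Per the file headers, the authors normalized the signal of each peak, its tag count, to a library of 10000000. Lengths are deposited in bp (other unit), the findPeaks score as a whole number, and the clonal fold as a ratio set by the authors' caller against a limit of 2.

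From these, overlaps (1 bp, intervals half-open, checked with bedtools 2.31.1), gaps and runs were computed with Python 3.11.15 (pandas 2.3.3, scipy 1.17.1). The limit of 79.2 tags is the median, over merged regions with a peak in both lists, of the mean of the tag sums of the lists. Tag ranges were divided at 5, 10, 20 and 40 tags. Shared peaks were weighted to the mix of tag ranges of the sham-only regions. Intervals are exact (Clopper-Pearson for shares, Poisson for tags, order statistics for medians) at 95%. Functions were tested on simulated intervals. Named regions are, among the set, the 5 with most tags, widest, densest, farthest from and closest to a transected peak, and 2 groups of most members. The set and these rules were chosen with earlier results of these data known. No gene was assigned and no sequence is shown, since no genome of the build of the lists was used here.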

Additional observations from a re-analysis of the deposited data

How the results depend on the processing

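No paired analysis was possible because each list pools both samples of its group, and for the same reason no sample could be left out. Of 57 alternatives to 8 values, 20 moved the value by no more than its interval (counts, 1.5 times). The number of regions was 5069 when 50% of a peak had to be covered to count as shared, and 984 at 300 bp or wider. The share of weak sham peaks without partner was 14.57% with peaks within 1 kb counted as shared, 33.21% with 50% cover, 33.79% with the upper 75% by score (a score of at least 9), 24.0% with the tag limit halved, 9.94% at 300 bp or wider and 17.28% with the sham score scaled to the transected depth. In the order 50% cover and upper 75% by score, density was 30.1 and 33.91 tags per kb. The median gap was 432 bp with 50% cover, 12183.5 bp by score, 9056 bp at a clonal fold of at most 1, 6720 bp at 300 bp or wider, 10895.5 bp to transected peaks wider than 1 window and 9737 bp to regions in both lists. The flanking share was 12.81% (within 1 kb shared), 18.51% (score), 19.77% (clonal fold), 26.02% (300 bp), 16.25% at 2 kb, 31.16% at 10 kb and 22.04% with strong transected peaks. The share with a neighbour was 9.80% (within 1 kb shared), 5.29% (300 bp), 8.62% at 5 kb, 18.81% at 25 kb and 23.7% with any sham-only peak. The density excess of shared peaks, 2.74 tags per kb, was 2.04 (within 1 kb shared), 4.32 (score), 1.53 with ranges of 1 tag and 11.43 with width ranges. The ratio of sham-only to transected-only counts was 3.16 (within 1 kb shared), 1.56 (score), 2.89 (300 bp) and 2.07 where sham tags alone, scaled to the transected depth, had to reach 8. It reversed to 0.569 with the sham score so scaled, a one-sided setting, since it removes sham peaks at the threshold score and no transected peaks. The settings scaling the score and measuring to regions in both lists, and the distances and flanking shares of transected-only regions under other settings, were chosen after seeing the data. With about 17 tags a region, counting error alone spans 4.38 to 12.05 normalized tags, which limits every single region.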

Other observations

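Strong sham regions with a sham-only region near them carried slightly less signal in transected nerve. Of 14412 sham peaks of at least 79.2 tags, 731 had one of the 3004 sham-only regions within 5 kb, and all 731 overlapped a transected peak. Their median log2 ratio of transected over sham tags was -0.10 (quartiles -0.31 and 0.05), and 66.6% were below 0. For the 13641 strong peaks with a partner and no sham-only region near, the median was -0.02 (quartiles -0.19 and 0.12), and 53.6% were below 0. Beside transected-only regions of the same kind the sign was opposite: 536 strong sham peaks with a partner had a median of 0.07 (quartiles -0.08 and 0.22), and 39.2% were below 0. The transected call was narrower than the sham call in 69.4% of the first group, 63.2% of the second and 51.1% of the third. The grouping itself bears on these values. A sham-only region exists only where no transected call reaches it, the partner of the strong peak included. For transected-only regions the same holds with sham calls. How far this selection makes the differences was not tested. A strong peak can have neighbours of both kinds. Median sham tags were 415.1 for the strong peaks with a sham-only region near and 519.1 for all 13681 without. The quartiles of the groups overlap, each list is 1 pool, and the differences were not tested.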
